A study of Mus musculus with 9 samples.

Results

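The genes described here encode 10 RNA-binding proteins that carry mRNAs along cell processes or hold their translation in check until they arrive. They were taken as a list of symbols, and all 10 were found among the 22092 genes counted. They are Qk, a STAR-family protein, the fragile X family members Fmr1, Fxr1 and Fxr2, the double-stranded RNA binders Stau1 and Stau2, the cytoplasmic polyadenylation element binders Cpeb2, Cpeb3 and Cpeb4, and the purine-rich element binder Pura. Their mRNAs were measured on ribosomes of whole astrocytes and of perivascular endfeet, the astrocyte processes that wrap brain vessels.

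All mice were 2 months old, of the strain labelled Aldh1L1 JD130, and carried the transgene Aldh1L1-L10aGFP, in which the promoter of the astrocyte gene Aldh1l1 drives a ribosomal protein fused to GFP. Translating ribosome affinity purification (TRAP) then recovers the RNA on tagged ribosomes with GFP antibodies. The 3 whole astrocyte TRAP libraries were each made from the brain of 1 mouse, and the 6 endfeet TRAP libraries from purified brain vessels, with the vessels of 8 mice pooled for each. Both groups carried the transgene, so neither is an untagged background, and a library of RNA that sticks to the beads was not analysed here. The question was which of these mRNAs are held at a higher or lower level on endfeet ribosomes than on those of the whole astrocyte.

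Local translation begins with an mRNA that is packed with RNA-binding proteins into a granule, moved along microtubules by motor proteins and kept silent on the way. Staufen proteins and Pur-alpha are known as parts of such granules in neurons, FMRP and its relatives as repressors that sit on translating ribosomes, and CPEB proteins as regulators that lengthen the poly(A) tail of their targets or keep them silent. Qk encodes quaking, best known for binding myelin mRNAs in oligodendrocytes, and it is also abundant in astrocytes. The values below are of the mRNAs that encode these proteins, and the proteins themselves were not measured.

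The Qk gene lies on the minus strand of chromosome 17 (mm10, 10202601 to 10319854) and ends in different ways. The windows below, from the GENCODE M21 transcripts, show why its ends matter for what follows. Each gives 15 bases of the shared exon (17:10216160-10216459) in lower case and the next 15 bases of the transcript in capitals, and the reading frame leaves the shared exon for 3 different protein ends.
Qk-201: ccagtggtgtgttagAGTGGATTGAAATGC
Qk-204: ccagtggtgtgttagGTGCGGTGGCTACTA
Qk-206: ccagtggtgtgttagGTATGGCTTTCCCAA
Qk-201 codes for 325 residues, Qk-204 for 341 and Qk-206 for 319. The form of 341 residues is known to be nuclear. Of the 3 transcripts, Qk-201 was counted in the deposited files, and it stands for the gene here because its counts were the highest of the gene's transcripts. In Qk-201 the exon after the shared one (17:10210179-10215474) contains the next exons of Qk-204 (17:10213359-10213433) and Qk-206 (17:10210189-10214194). The counts of Qk-201 can therefore include reads from Qk-204 and Qk-206.

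Several members carry in their own 3′ untranslated regions the short elements that proteins of the list are known to bind. The searched elements were ACTAAC or ACTAAT for quaking, TTTTAT or TTTTAAT for CPEB proteins and TGTANATA for Pumilio proteins, on the sense strand alone, with overlapping matches counted. The 4 quaking elements in the 5252 bases of Qk itself, of which the element is in capitals, are shown first because Qk was the member that differed most.
Qk, chr17:10214212-10214237, minus strand: ttcattgatgACTAATgtttaattcc
Qk, chr17:10213909-10213934, minus strand: tgtttgctttACTAATcacctaattc
Qk, chr17:10212598-10212623, minus strand: atccttttttACTAACctgtgactgg
Qk, chr17:10211900-10211925, minus strand: aaattttttcACTAACacaataatcc
The CPEB element nearest to the end of the transcript is shown for the 3 Cpeb genes and Fmr1, since the element is known to act near the poly(A) signal.
Cpeb2, chr5:43289556-43289581, plus strand: atttagtttaTTTTATtgttatcttc
Cpeb3, chr19:37021508-37021533, minus strand: aataaattaaTTTTATgatgctaatt
Cpeb4, chr11:31935408-31935433, plus strand: gtaattcattTTTTATtaaagtcatt
Fmr1, chrX:68717919-68717944, plus strand: agatgtaaatTTTTATtaaaaagttg

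A quaking element was present in 30.3% of the 3′ untranslated regions of 18008 genes and a CPEB element in 55.0%. Cpeb2 held 6 quaking and 24 CPEB elements in 3777 bases. Of the 1365 other genes whose 3′ untranslated region was of like length (0.8 to 1.2 times), 0.440% had at least as many quaking elements, and none had as many CPEB elements.

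Cpeb4 held 5 and 17 in 4102 bases. Of its 1164 genes of like length, 3.09% had at least as many quaking elements and 0.344% at least as many CPEB elements. Cpeb3, their close relative, held 1 and 6 in 3569 bases, close to the medians of 1 and 4 in 1469 genes of like length. Fxr1, Fxr2 and Stau1, with 255, 598 and 1795 bases, held none of the 3 elements in the transcripts that stand for them. Of genes of like length, 22.0%, 45.3% and 79.7% in that order held a CPEB element. A quaking element was held by 7.61%, 17.3% and 44.3%. Qk held 11 CPEB elements beside its 4 quaking elements, and 10.4% of 670 genes of like length had at least as many of the latter. The counts of quaking and CPEB elements were 3 and 12 in Pura, 2 and 2 in Stau2, and 1 and 4 in Fmr1. A Pumilio element was found in 5 of the 10 genes (2 in Fmr1, 1 each in Cpeb2, Cpeb3, Pura and Qk) and in 22.6% of all genes. Among genes of a length like that of these 5, the share with at least 1 ran from 37.8% (Fmr1) to 60.6% (Qk). At least 2 were held by 11.5% of genes of a length like that of Fmr1. A match describes the sequence and does not show that a protein sits there.

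Total counts over the transcripts that stand for genes were 35984144 to 43521208 per whole astrocyte library and 2319495 to 13450588 per endfeet library. On this total, 3 counts equalled 0.0689 to 0.0834 CPM (counts scaled to the total) in the first and 0.223 to 1.29 CPM in the second. These values for 3 counts are scaled by that total alone, and all other CPM values given are scaled by the TMM factors of edgeR as well. Astrocyte markers summed to between 24231 and 26640 CPM in whole astrocyte libraries and between 11169 and 31905 CPM in endfeet libraries, with 1 of 10 higher in endfeet (Aqp4) and 4 lower. Markers of vessel cells came with the endfeet, as 8 of 8 endothelial, 8 of 8 mural and 5 of 6 fibroblast markers were higher there, as were 5 of 8 microglial and macrophage and 4 of 6 ependymal markers. The endothelial sum was 4.65 to 7.15 CPM in whole astrocyte libraries and 3093 to 4496 CPM in endfeet libraries, and Ly6c1 had no count in the former. Neuronal sums were 3410 to 3986 CPM against 913 to 1788 CPM, with 3 of 8 markers lower in endfeet. The part of these markers in the differences given below was not tested. In such bulk samples, fewer cells of a type and less RNA per cell cannot be told apart.

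Of the 10 genes, 2 were lower in endfeet TRAP and none was higher (edgeR's quasi-likelihood test, Benjamini-Hochberg adjustment over 14427 genes, threshold 0.05). Over all genes tested, 13.9% were lower and 20.7% were higher. None of the 10 was called higher by DESeq2 or limma voom either. The median log2 fold change of the 10 genes was -0.84, against 0.10 over all genes tested. Each of the 6 endfeet libraries lay below each of the 3 whole astrocyte libraries for 5 of the 10 genes. This was so for 23.8% of all genes tested. The 5 were Qk, Fmr1, Fxr2, Cpeb3 and Cpeb4. No member had its endfeet libraries all above, which was so for 18.9% of all genes tested.

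**Figure D1:**
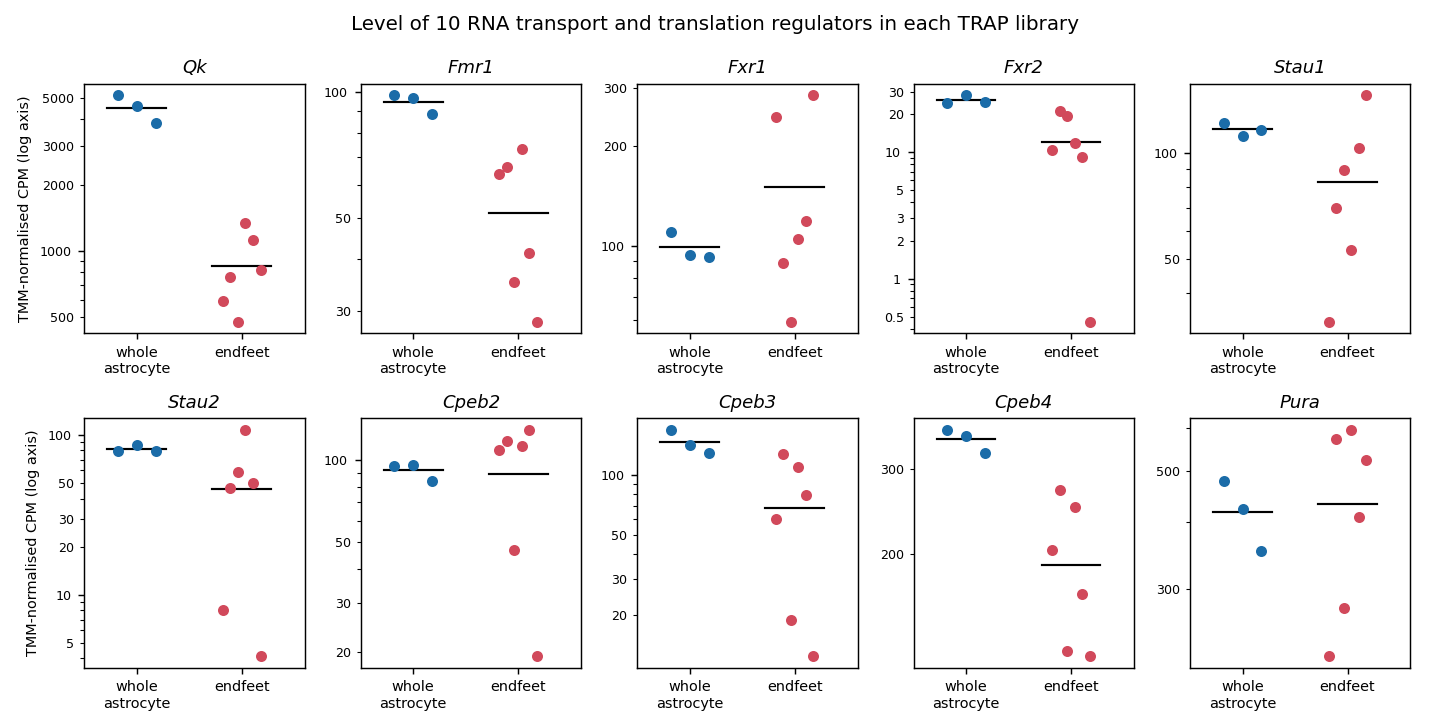
TMM-normalised CPM on log axes, each with its own range, of the 10 genes in 3 whole astrocyte TRAP (blue) and 6 endfeet TRAP (red) libraries, 1 point per library and a line at the mean. The red points of Qk, Fmr1, Fxr2, Cpeb3 and Cpeb4 all lie below the blue ones, and the endfeet points of Stau2 and Fxr2 are the most spread.

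Qk had the largest difference of the 10. Its level was 5139, 4557 and 3822 CPM in the whole astrocyte libraries. In the endfeet libraries it ranged from 477 to 1349 CPM, with a median of 789 CPM. The 2 ranges were far apart, and the highest endfeet library stayed below the lowest whole astrocyte library. The mean fell 5.28-fold, from 4506 ± 660 CPM (SD, n = 3) to 854 ± 328 CPM (SD, n = 6). The fitted log2 fold change was -2.40 (SE 0.31, edgeR adjusted p = 6.58e-05). Within the 6 libraries whose names carry the same series number (series B: all whole astrocyte libraries and endfeet libraries 4, 5 and 6), it was -2.17, with an edgeR adjusted p of 0.000784. Markers of oligodendrocytes, the cells in which quaking is best known, summed to 827 to 832 CPM in whole astrocyte and 253 to 633 CPM in endfeet libraries, with 2 of 8 lower in endfeet (Cnp and Olig1) and none higher. Their part in the Qk difference was not tested.

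Even so, Qk remained the most abundant of the 10 mRNAs per length in both groups. Its mean was 669 CPM per kb of exon in whole astrocytes, which ranked 37 among all 22092 genes, and 127 CPM per kb in endfeet, which ranked 243.

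Counts of a second Qk transcript fell less than those of Qk-201. Qk-202, annotated as a target of nonsense-mediated decay, shares 2277 bases of exon with Qk-201. Its last exon (17:10206551-10209631, 3081 bases) lies outside Qk-201 and within Qk-204, the form of 341 residues, which itself was not counted. Reads on that exon can therefore come from either. Qk-202 was chosen for description after its values were seen, since the rule for transcript ratios kept only protein-coding transcripts.

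Qk-202 had 1096, 947 and 947 CPM in whole astrocyte libraries and 170 to 544 CPM, median 325 CPM, in endfeet libraries. The mean was 2.97-fold lower in endfeet, against 5.28-fold for Qk-201. As a share of the Qk-201 counts, Qk-202 counts were 20.8% to 24.8% in whole astrocyte libraries and 33.2% to 47.7% in endfeet libraries, so that the groups did not overlap. The log2 ratio was 0.82 higher in endfeet, with p = 0.0119 in a two-sided exact permutation test, the smallest that the 84 arrangements of 3 and 6 libraries allow. After adjustment over the 21 transcript ratios of any annotated type it was 0.0833, so the difference did not pass the threshold, which would have taken at least 5 ratios at the smallest p.

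**Figure D2:**
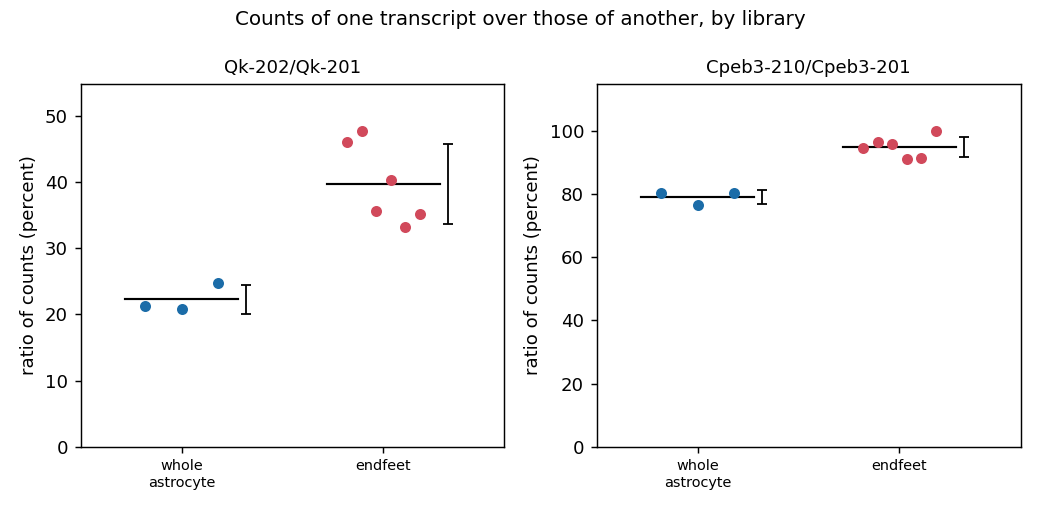
Counts of Qk-202 as a percent of those of Qk-201 (left) and of Cpeb3-210 as a percent of those of Cpeb3-201 (right) in each library, with the mean (line) and SD (bar). In both panels the 6 endfeet libraries (red) lie above the 3 whole astrocyte libraries (blue), from 33.2% for Qk and from 91.2% for Cpeb3.

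No gene of the fragile X family passed the test. Fmr1, on the X chromosome, encodes FMRP, the repressor whose loss causes fragile X syndrome. It had 98.3, 96.6 and 88.4 CPM in whole astrocyte libraries and 28.3 to 73.2 CPM, median 52.6 CPM, in endfeet libraries. The groups did not overlap, and the fitted log2 fold change was -0.88 (SE 0.36, edgeR adjusted p = 0.0729). This value crossed the threshold in 7 of 19 alternative fits, among them DESeq2 (adjusted p = 0.0440), the libraries of series B alone (adjusted p = 0.0496), and the fits without endfeet library 1 (0.0438), without endfeet library 4 (0.0302) and without endfeet libraries 1 and 6 (0.0333). Other fits moved away from it. The edgeR adjusted p was 0.226, 0.193 and 0.159 without whole astrocyte library 1, 2 or 3. It was 0.121 without endfeet library 3 and 0.102 with the library series as a covariate.

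Fxr1, an FMRP relative known from muscle, had 111, 93.9 and 92.6 CPM in whole astrocyte libraries and 59.1 to 286 CPM, median 112 CPM, in endfeet libraries. The endfeet values lay on both sides, with libraries 1 and 6 far above (246 and 286 CPM). Its log2 fold change was 0.60 (SE 0.46, edgeR adjusted p = 0.331), and -0.07 without libraries 1 and 6. Fxr2, the third relative, had 24.2, 28.3 and 25.0 CPM in whole astrocyte libraries and 0.457 to 21.03 CPM, median 11.1 CPM, in endfeet. Every endfeet library lay below every whole astrocyte library, but endfeet library 6 held 1 count of Fxr2, under the 3 counts taken as the lowest amount, and the log2 fold change of -1.09 had an SE of 0.73 (edgeR adjusted p = 0.264).

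Neither Staufen gene passed the test, and both overlapped between the groups. Stau1, the widely expressed form, had 122, 112 and 117 CPM in whole astrocyte libraries and 33.2 to 147 CPM, median 79.8 CPM, in endfeet libraries. Its log2 fold change was -0.50 (SE 0.40, edgeR adjusted p = 0.346), with 5 of 6 endfeet libraries below the whole astrocytes. Stau2, the form enriched in neurons, had 79.1, 86.0 and 79.1 CPM in whole astrocyte libraries and 4.11 to 108 CPM, median 48.1 CPM, in endfeet libraries. That is a 26.2-fold range among the endfeet libraries against 1.09-fold among the whole astrocyte libraries. Library 4 was highest and libraries 1 and 6, with 43 and 9 counts, were lowest, and the log2 fold change was -0.82 (SE 0.71, edgeR adjusted p = 0.395).

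Among the CPEB genes, Cpeb4 was lower in endfeet, and Cpeb3 and Cpeb2 did not pass the test. Cpeb4 had 363, 353 and 324 CPM in whole astrocyte libraries and 122 to 271 CPM, median 184 CPM, in endfeet libraries. The groups did not overlap, and the mean was 1.83-fold lower in endfeet (347 ± 20.1 CPM, n = 3, against 190 ± 63.1 CPM, n = 6, SD). The log2 fold change was -0.87 (SE 0.29, edgeR adjusted p = 0.0340). The call was lost when whole astrocyte library 1 (adjusted p = 0.134), 2 (0.107) or 3 (0.0842) or endfeet library 3 (0.0619) was left out, and with the library series as a covariate (0.0582). Within series B it was -1.07, with an edgeR adjusted p of 0.0205.

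Cpeb3, which represses translation of synaptic mRNAs in neurons, had 169, 141 and 129 CPM in whole astrocyte libraries and 12.3 to 128 CPM, median 69.7 CPM, in endfeet libraries. The groups touched without overlap, with endfeet library 2 at 128.0 CPM and whole astrocyte library 3 at 128.6 CPM. The log2 fold change was -1.10 (SE 0.57, edgeR adjusted p = 0.157). Cpeb2 had 95.2, 96.0 and 84.1 CPM in whole astrocyte libraries and 19.2 to 129 CPM, median 111 CPM, in endfeet libraries. Of the latter, 4 lay above and 2 (libraries 3 and 6) below all whole astrocyte libraries, and the log2 fold change was -0.04 (SE 0.48, edgeR adjusted p = 0.956).

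Pura, on chromosome 18, encodes Pur-alpha, a single-stranded nucleic acid binder found in kinesin-bound granules. It had 478, 424 and 353 CPM in whole astrocyte libraries and 225 to 596 CPM, median 466 CPM, in endfeet libraries. The groups overlapped, and the log2 fold change was 0.05 (SE 0.32, edgeR adjusted p = 0.916, 95% interval -0.65 to 0.75). The interval leaves room for a modest change in either direction.

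**Figure D3:**
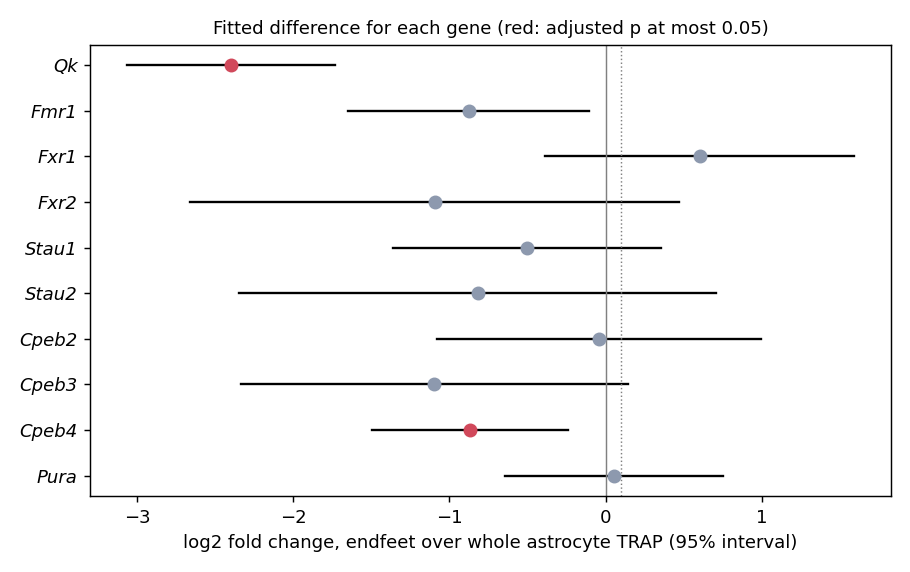
Fitted log2 fold change of endfeet over whole astrocyte TRAP for each of the 10 genes with its 95% interval, red where the edgeR adjusted p was at most 0.05. The dotted line marks the median of all genes tested (0.10). Qk at -2.40 and Cpeb4 at -0.87 are red, and the intervals of Fxr2 and Stau2 are the widest.

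Per kb of exon, the order in whole astrocytes was Qk, Pura, Cpeb4, Fxr1, Stau1, Cpeb3, Fmr1, Stau2, Cpeb2 and Fxr2, with means from 669 down to 8.76 CPM per kb. Of the 9 pairs of neighbours in this order, 2 had overlapping libraries, Cpeb3 with Fmr1 and Fmr1 with Stau2. In endfeet the order was Qk, Pura, Fxr1, Cpeb4, Stau1, Cpeb2, Stau2, Fmr1, Cpeb3 and Fxr2, with means from 127 to 4.06 CPM per kb. All 9 neighbouring pairs overlapped there. Qk stood 9.53-fold above Pura in whole astrocytes and 1.74-fold above it in endfeet, in means per kb.

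Ratios of relatives within a library do not depend on how the libraries are scaled, and 7 were compared. The log2 ratio of Fxr1 to Fmr1 counts was 0.07 ± 0.11 in whole astrocytes (SD, n = 3) and 0.43 to 3.32 in endfeet libraries, each above every whole astrocyte library. The difference of 1.35 did not pass the test (two-sided exact permutation p = 0.0714, adjusted over 7 ratios 0.25). The log2 ratio of Cpeb3 to Cpeb2 counts was 0.82, 0.56 and 0.61 in whole astrocyte libraries and -1.32 to 0.12 in endfeet libraries, again without overlap.

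For Cpeb3 over Cpeb2 the difference in log2 ratio was -1.23, at the smallest p these libraries allow (two-sided exact permutation p = 0.0119, adjusted 0.0833). With 7 ratios, at least 2 at that value would have been needed to pass, and none of the 7 passed. The ratio of Stau2 to Stau1 ranged in log2 from -5.08 to 1.02 among endfeet libraries, against -0.63 to -0.38 in whole astrocytes (exact permutation p = 0.5, adjusted 0.560). For Fxr2 over Fxr1 the log2 ratio was -1.94 ± 0.23 in whole astrocytes and -3.97 ± 2.55 in endfeet (SD, n = 3 and 6, exact permutation p = 0.250, adjusted 0.4375). Endfeet library 6, with 1 Fxr2 and 9 Stau2 counts, had the lowest value of both ratios. Without it the difference in log2 ratio moved from -2.03 to -1.09 for Fxr2 over Fxr1 and from -0.87 to -0.13 for Stau2 over Stau1.

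**Figure D4:**
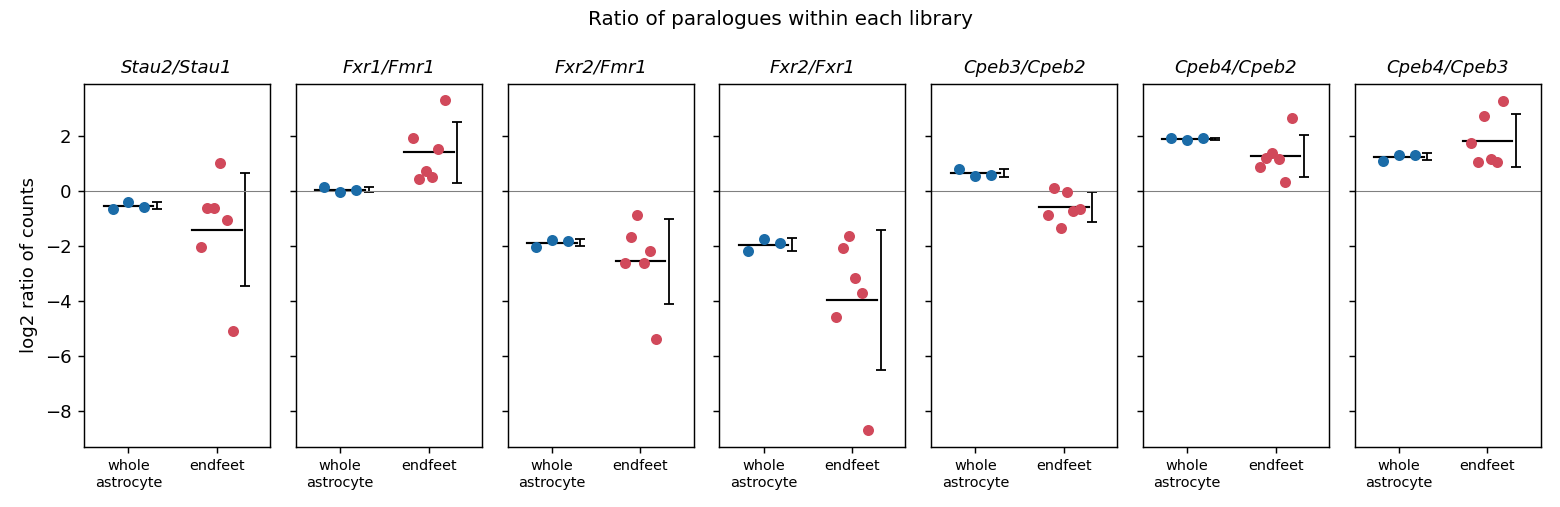
Log2 ratio of counts of 2 related genes within each library, for 7 pairs, with whole astrocyte TRAP in blue, endfeet TRAP in red, the mean as a line and the SD as a bar. Red points of Cpeb3/Cpeb2 all lie below the blue ones, those of Fxr1/Fmr1 all above, and the other pairs overlap.

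Within single genes, 15 ratios of protein-coding transcripts in 6 of the 10 genes had at least 10 counts in every library, and none passed the adjusted test, with 2 at an unadjusted p under 0.05. Both concern Cpeb3. Cpeb3-210 and Cpeb3-212 share most exons with Cpeb3-201, the transcript that stands for the gene, and lack the last 588 bases of its 3′ untranslated region (19:37021291-37021878). Cpeb3-210 also lacks 2 short coding stretches of 27 and 24 bases, and Cpeb3-212 has another start. The counts of Cpeb3-210 were 80.3%, 76.7% and 80.4% of those of Cpeb3-201 in whole astrocyte libraries and 91.2% to 100% in endfeet libraries. The groups did not overlap (difference in log2 ratio 0.26, two-sided exact permutation p = 0.0119, adjusted over 15 ratios 0.0893), and at least 4 ratios at this p would have been needed to pass. The CPEB element of Cpeb3 shown above lies in those last 588 bases. Endfeet library 6, with 27 Cpeb3 counts, gave the 100% at the top of this range. It weighs as much as any other endfeet library in the test.

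Cpeb4-201, a short form of 2312 bases, had 37.0% to 41.5% of the counts of Cpeb4-202 in whole astrocyte libraries and 27.0% to 79.9% in endfeet libraries (exact permutation p = 0.5, adjusted 0.682). Pura and Fxr2 gave no ratio, Stau2 none because its main transcript had 9 counts in endfeet library 6, and Qk none among coding transcripts.

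Across the 9 libraries, the profile most like that of Qk among 14426 other genes was that of Lgalsl, which encodes a galectin-related protein (mean absolute difference 0.18 in centred log2(CPM + 1), log2 fold change -2.21). The one most like Cpeb4 was another member, Fmr1 (mean absolute difference 0.10).

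A wider list of 79 genes for mRNA transport and translation control was counted beside the 10, and 77 were tested. In endfeet TRAP 10 were higher and 12 were lower, or 12.99% and 15.6% of those tested, against 20.7% and 13.9% of all genes, with a median log2 fold change of 0.01. Relatives of the 10 held 1 lower gene of 5 tested. It was Khdrbs3, like Qk a STAR-family protein, with 104, 109 and 100.2 CPM in whole astrocytes and 2.28 to 22.4 CPM, median 11.2 CPM, in endfeet (log2 fold change -3.13, SE 0.56, edgeR adjusted p = 0.000817). Its endfeet libraries all lay below the whole astrocyte ones.

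Of 13 partners of FMRP and CPEB proteins, G3bp1 was higher (log2 fold change 2.23, SE 0.46, edgeR adjusted p = 0.00236) and none was lower. G3bp1, the core protein of stress granules, had 64.5 to 74.0 CPM in whole astrocytes and 144 to 589 CPM in endfeet. The FMRP partners Cyfip1 and Cyfip2 and the granule protein Caprin1 were not called. Among 25 tested mRNA localization proteins, 3 were higher and 8 lower. Among them were Celf1, a regulator of splicing and mRNA decay (log2 fold change 1.06), on the higher side, and Msi1, a translation regulator of neural stem cells and astrocytes (-3.02), and the neuronal Elavl2 (-2.72) on the lower side. The call of Celf1 was lost in 8 of 19 alternative fits, among them those without any 1 of the whole astrocyte libraries or without endfeet library 4 or 5 (edgeR adjusted p of 0.0745 to 0.149). That of Elavl2 was lost without whole astrocyte library 1 (edgeR adjusted p = 0.0540) or 2 (0.0598). Of the 8 neuronal markers, 3 were lower in the same libraries, none was higher and 5 were not called. Their part in the Elavl2 difference was not tested.

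The 8 microRNA silencing genes had 4 higher (Ago2, Dicer1, Tnrc6b and Tnrc6c), none lower and a median log2 fold change of 1.05. Ago2, the slicer Argonaute, had 172 to 205 CPM in whole astrocytes and 519 to 2271 CPM in endfeet (log2 fold change 2.36, SE 0.47, edgeR adjusted p = 0.00189). Dicer1, which cuts microRNA precursors, had a log2 fold change of 1.81 (SE 0.37, edgeR adjusted p = 0.00199). All endfeet libraries lay above all whole astrocyte libraries for both, as they did for 18.9% of all genes tested.

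Of 9 exon junction and decay factors, Dcp2, the decapping enzyme, was higher (2.79, SE 0.53, edgeR adjusted p = 0.00127). Of 17 motor and adaptor genes, the dynein heavy chain Dync1h1 was higher (2.46, SE 0.29, edgeR adjusted p = 3.01e-05), and the dynein adaptor Bicd1 (-2.30, SE 0.40, adjusted p = 0.000679), its relative Bicd2 and the kinesin chain Kif5c (-1.20, SE 0.29, adjusted p = 0.00647) were lower. Vessel cell markers were higher in the same libraries, and their part in these differences was not tested.

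**Figure D5:**
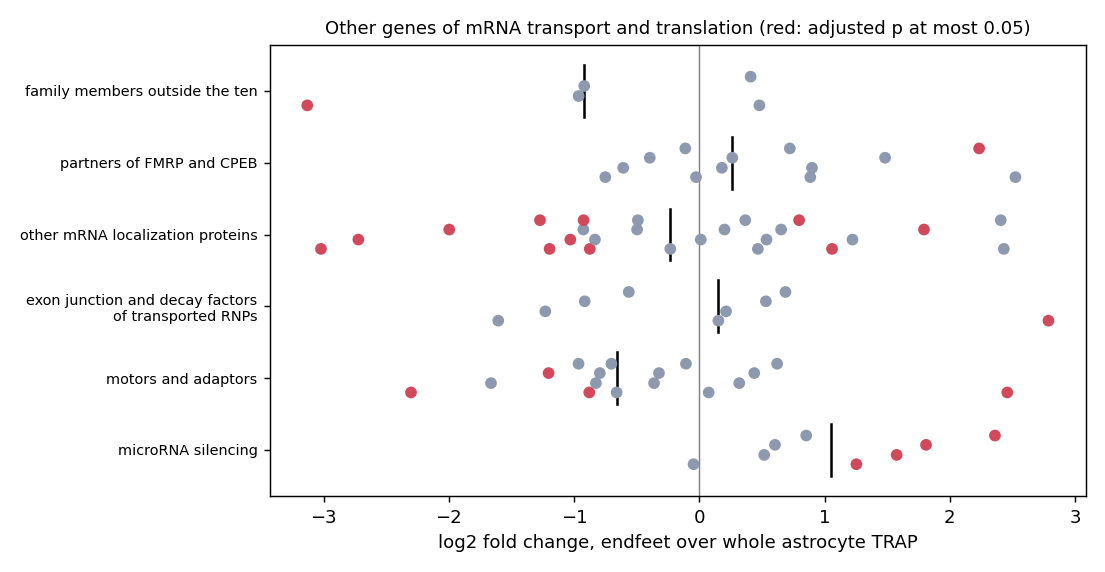
Log2 fold change of endfeet over whole astrocyte TRAP for the 77 tested genes of the wider list, 1 point per gene, red where the edgeR adjusted p was at most 0.05, with a bar at the median of each group of genes. The microRNA silencing genes have the highest median (1.05) and 4 red points, all to the right of zero.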

How the data were processed

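TRAP libraries of whole astrocytes (3) and endfeet (6) were sequenced as reads of 50 bp. Per the labels, bcl2fastq 1.8.4, Bowtie and HTSeq-count 0.5.3 were used on mm10. The authors deposited unnormalized counts of reads on Ensembl transcripts, made from uniquely aligned reads after removal of poor reads. RNA was amplified before sequencing, so reads are not independent molecules. A read was counted on every transcript it overlapped. Transcripts (73164 of 75466) were matched to GENCODE M21, and 1 transcript, that of highest total CPM, stood for each gene.

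Groups were compared with edgeR 4.0.16 (TMM, filterByExpr, quasi-likelihood test, R 4.3.3). Ratios of counts, with 0.5 added, were compared by two-sided exact permutation tests. DESeq2 1.42.0, limma 3.58.1 and other settings were alternatives. Endfeet libraries 1 to 3 carry another number in their names (series A) than the other 6 libraries (series B). What it stands for is not stated, and series A holds endfeet only. Whether samples of a group came from separate animals is stated for whole brains and pools, and p-values measure the spread between these libraries. Same-numbered libraries of the groups did not deviate together.

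The 10 genes and all lists were chosen with earlier results of these data known. Genes named are the 10, up to 2 of largest change per sublist and direction, marker genes, and the closest profile to each called member. A gene that this rule names is not reported here. The markers Aqp4, Aldoc, Sox9, Aldh1l1, S1pr1, Cnp, Olig1 and Ly6c1 were named after values were seen. So were Tnrc6b, Tnrc6c, Bicd2, Cyfip1, Cyfip2, Caprin1 and the transcript Qk-202. Tests were tested on simulated data. Sequences came from GENCODE M21 (mm10). Tables were handled in Python 3.11.15.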

Additional observations from a re-analysis of the deposited data

Results flagged for a closer look

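In 6 of the 32 sets of endfeet values examined, 1 library stood apart from the other 5 by Dixon's criterion at 95%, and chance gives this in about 1 of 20 such sets. All 6 were ratios of transcripts within a gene. The 3 Stau1 ratios were lowest in endfeet library 6, the shallowest, where Stau1-201 and Stau1-204 each had 55.8% and Stau1-203 had 41.2% of the Stau1-202 counts, on 321 Stau1-202 counts. The Fmr1-205 ratio was lowest in the same library, at 92.0% of 62 Fmr1-201 counts. Endfeet library 1 was lowest for Fmr1-202, at 91.8% of Fmr1-201, and for Cpeb2-205, at 89.7% of Cpeb2-204. The ratios within a gene share reads and are not independent of each other. No level of the 10 genes and no ratio between relatives had such a library.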

How the results depend on the processing

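Of the 10 genes, Qk was lower under all 19 alternatives, at log2 fold changes of -2.93 to -2.04. The number lower (2) became 5 with limma voom and a weight for each group, 1 with the library series as covariate, 1 with the replicate block, and 1 to 3 when 1 library was left out. Where 1 gene was left, it was Qk. No alternative made a member higher. In the wider list, the genes lower (12) became 27 with voom and 22 without endfeet libraries 1 and 6, an alternative chosen after seeing the data, and 6 to 17 when 1 library was left out. The genes higher (10) became 6 to 11 with 1 library left out, the lowest without any whole astrocyte library or without endfeet library 4 or 5. The lowest count of lower genes came without whole astrocyte library 1 or 2. With 1 library left out, fewer libraries enter the fit. The share of all genes called under each alternative is not given here. These numbers therefore show how stable the calls were and do not set the lists against other genes.

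None of the values that changed sign was called. Pura became -0.023 without the filter on low counts, -0.10 with at least 10 counts in every library, -0.035 with voom and -0.36 with the replicate block, and ranged from -0.19 to 0.20 with 1 library left out. Without endfeet libraries 1 and 6, Fxr1 moved from 0.60 to -0.070 and Cpeb2 from -0.042 to 0.16, and Cpeb2 ranged from -0.30 to 0.17 with 1 library left out. The transcript log2 ratios that changed sign then ranged from -0.020 to 0.0047 (Fmr1-202), -0.33 to 0.064 (Cpeb2-202), -0.031 to 0.0012 (Cpeb2-205) and -0.0040 to 0.0031 (Cpeb3-203), each against the transcript that stands for its gene. The cause was not tested.

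Replicate numbers shared by the groups did not pair the libraries, as same-numbered libraries correlated at -0.034, 0.0085 and 0.071 in their deviations, and the replicate block, which uses the 3 shared numbers, lost the call of Cpeb4 (adjusted p = 0.0597). The endfeet libraries were more spread, with a common dispersion of 0.725 against 0.0142 in whole astrocytes. Depth limits endfeet library 6, where Fxr2 had 1 count and Stau2 had 9.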
